A study of Mus musculus with 6 samples.

Results

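10 genes that encode regulators of G-protein signalling (RGS) were followed in the mouse mast cell line MC/9: Rgs1, Rgs2, Rgs3, Rgs10, Rgs13, Rgs14, Rgs16, Rgs18, Rgs19 and Rgs20. They were taken by symbol and are 10 of the 49568 genes in the count table. RNA of 6 libraries was sequenced, 3 labelled as control and 3 labelled as treated with 10 nM rPTH for 24 h. The labels do not expand rPTH, which is read here as a parathyroid hormone preparation. According to the design text, mast cells were added to plated 7F2 osteoblasts, the treatment was given to the co-culture, and the mast cells were collected again; the labels leave it unsaid if controls, too, were kept with osteoblasts. MC/9 and 7F2 are both established mouse lines, so the mast cells of both groups are of 1 line, and nothing says that the 3 libraries of a group came from separate cultures. The p-values therefore measure only the spread between these libraries, which may be technical.

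RGS proteins shorten signals from G-protein-coupled receptors. An activated receptor loads the G alpha subunit with GTP, and the RGS domain speeds the hydrolysis of that GTP, after which alpha and beta-gamma subunits reassemble and signalling stops. Mast cells carry many such receptors, for adenosine, prostaglandins, sphingosine-1-phosphate and thrombin among others, and Rgs13 is known as a brake on mast cell activation. The parathyroid hormone receptor itself signals through Gs and Gq, and Rgs2 is known as a gene that this hormone induces in osteoblasts. In these libraries the receptor gene Pth1r had 10 to 19 counts each and Pth2r 0 to 3.

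Total counts ran from 22282095 to 33577977 per library, the rPTH libraries being the 3 deepest. A count of 0 allows up to 3 counts, or 0.0893 to 0.135 CPM (counts scaled to the library total) over the libraries; such floors cover counting error only. By principal components, control 1 was the outlying library of the first (53.1% of variance) and control 3 of the second (31.1%). Mast cell markers were abundant in all 6 libraries, led by Cpa3, Fcer1a and Gata2, and summed to 8240 to 8700 CPM in controls and 6950 to 9130 CPM with rPTH (15 markers, plain CPM). RNA of stromal cells was present too. The 40 osteoblast and stromal markers, of which Spp1, Fn1 and Bgn were the most abundant, summed to 2770, 3050 and 3000 CPM in controls and to 6020, 3950 and 4140 CPM with rPTH. The exact two-sided permutation test of that difference gave p = 0.1, the smallest that 3 against 3 libraries allow. Of the defining osteoblast genes, Runx2 had 346 to 1121 counts per library and Sp7 7 to 33, while Ibsp had 0 to 1 and Bglap 1 to 5. Library rPTH 1 thus had both the highest stromal sum and the lowest mast cell sum. The 10 macrophage markers, led by Cd68, Lyz2 and Mrc1, summed to 5.48 to 6.92 CPM over the libraries and the 14 lymphoid and erythroid markers, led by Klf1, Hba-a1 and Hba-a2, to 4.25 to 9.35 CPM. In such bulk libraries a change in the number of cells of a type and a change in RNA per cell cannot be told apart.

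The members fall into 3 subfamilies by their sequence and domains, as known from the literature: R4 (Rgs1, Rgs2, Rgs3, Rgs13, Rgs16 and Rgs18), R12 (Rgs10 and Rgs14) and RZ (Rgs19 and Rgs20). Gene models were taken from GENCODE M21 on GRCm38. In all, 4 R4 members lie together on chromosome 1, all on the minus strand, in the order Rgs2 (143999338 to 144004161), Rgs13 (144138654 to 144177372), Rgs1 (144242296 to 144249242) and Rgs18 (144752683 to 144775435). That stretch spans 776.1 kb and holds 5 protein-coding genes, the fifth being Rgs21, which had 0 to 3 counts per library. Rgs16 (153740349 to 153745468, plus strand) and Rgs20 (4909576 to 5070285, minus strand) are elsewhere on the same chromosome. Rgs3 is on chromosome 4 (62559847 to 62704001), Rgs10 on chromosome 7 (128373621 to 128418758), Rgs14 on chromosome 13 (55369732 to 55384687) and Rgs19 on chromosome 2 (181688419 to 181693977). Exons of Rgs20 share 127 bases with those of Atp6v1h on the opposite strand, a gene with 2882 to 4885 counts per library against 84 to 157 for Rgs20, and 125 bases with the pseudogene Gm17101. No source used here says whether reads were counted by strand, so the counts of Rgs20 are uncertain. Exons of Rgs16 share 236 bases with the antisense gene Gm28513, which had 4 counts over all libraries.

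The 250 bases before the RefSeq start (GRCm38.p6) are shown for Rgs2 and Rgs13, neighbours in the cluster. Rgs2 is shown as the gene that the hormone is known to induce in osteoblasts, and Rgs13 as the member of highest level per kb. Capitals mark every match, on either strand, to 7 motifs searched. These were the cAMP response element TGACGTCA and its core TGACG, which lies within the full element. Further searches were for TATAAA near transcription starts, for the E-box form CACGTG and the related form CATGTG that the mast cell factor MITF binds, for AGATAA as bound by GATA factors, and for CCAAT. The Rgs2 window is chr1:144004150-144004399 and the Rgs13 window chr1:144177373-144177622, both read on the minus strand.
Rgs2: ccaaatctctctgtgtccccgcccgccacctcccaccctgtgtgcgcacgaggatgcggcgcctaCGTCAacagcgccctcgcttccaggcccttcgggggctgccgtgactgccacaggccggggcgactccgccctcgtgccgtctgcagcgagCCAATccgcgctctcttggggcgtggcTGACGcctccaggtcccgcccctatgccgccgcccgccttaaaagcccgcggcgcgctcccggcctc
Rgs13: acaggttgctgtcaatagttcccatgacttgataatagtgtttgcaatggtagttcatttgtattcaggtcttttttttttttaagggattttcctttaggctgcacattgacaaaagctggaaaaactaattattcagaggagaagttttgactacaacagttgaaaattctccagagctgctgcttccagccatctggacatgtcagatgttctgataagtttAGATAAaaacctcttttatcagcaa
Rgs2 held the core TGACG at 67 bases before the start and, on the other strand, at 185 bases, and CCAAT at 94 bases. Rgs13 held only AGATAA, at 25 bases. RefSeq windows were at hand for 6 of the 10 members (9 windows), Rgs1, Rgs14, Rgs18 and Rgs20 being absent. Rgs2 was the only one of these 6 with TGACG, which 17.8% of 32851 windows of the same length hold, and none of the 6 held the full element, which 1.55% hold. AGATAA, found for Rgs13 and Rgs3, is in 9.99% of all windows and CCAAT, found for Rgs2 and Rgs16, in 33.8%. TATAAA, found for Rgs3 alone, is in 12.4% of all windows. CACGTG (6.02% of all windows) and CATGTG (12.3%) were in none of the members' windows. These are matches of letters and show no binding.

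All 10 members passed the filter on low counts, with 53 (Rgs16) to 5671 (Rgs13) counts per library. From here on CPM is scaled by TMM factors, which were 0.81 for control 1 and 1.03 to 1.06 for the other 5 libraries, so values of control 1 are raised against the others relative to plain library totals. Per kb of exon, the most abundant was Rgs13, the mast cell brake, with control libraries at 74.2 ± 14.5 CPM per kb and rPTH libraries at 83.0 ± 14.3 CPM per kb (mean ± SD, n = 3 each). Rgs18, known from platelets and other blood cells, followed at 46.0 ± 2.33 and 49.1 ± 7.46 CPM per kb, and Rgs19, a regulator of Gi proteins on membranes of the secretory route, at 37.4 ± 11.0 and 32.3 ± 0.899 CPM per kb. Rgs13 was above Rgs18 in all 6 libraries with ranges that did not overlap, whereas Rgs18 was above Rgs19 in 5 of 6 and their ranges overlapped. Next came Rgs10 (mean of the 6 libraries 15.4 CPM per kb), Rgs1 (10.1), Rgs2 (6.55) and Rgs14 (6.35). Rgs10 was above Rgs1 in all 6 libraries although their ranges over libraries overlapped, Rgs1 was above Rgs2 with no overlap, and Rgs2 and Rgs14 did not differ beyond their spread. Rgs16 (1.27), Rgs20 (0.999) and Rgs3 (0.368 CPM per kb) were lowest. The length used matters for genes with many transcripts. Annotated exons of Rgs1 cover its whole span of 6947 bp while its longest coding transcript has 3841 bp. With the longest coding transcript as the length, a choice made after seeing the data, Rgs13 stayed first by its mean, at 84.2 CPM per kb, but was above the next gene, Rgs19, in 5 of 6 libraries with ranges that overlapped. Rgs19 (51.5) passed Rgs18 (47.6), Rgs14 (11.4) passed Rgs2 (7.86) and Rgs20 (1.99) passed Rgs16.

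**Figure D1:**
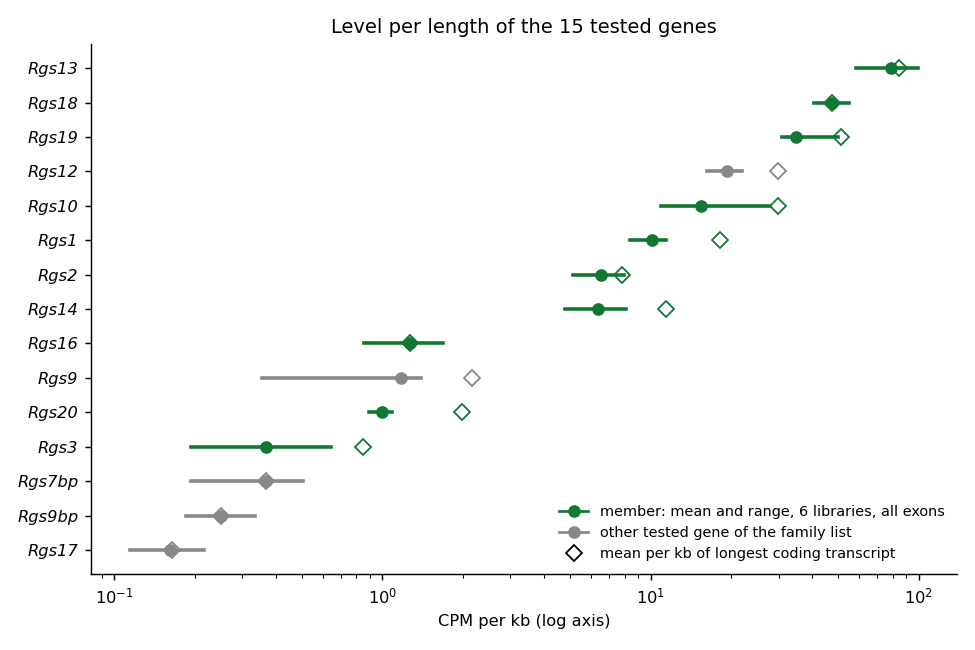
Level per kb (log axis) of the 10 members in green and 5 other tested genes of the family list in grey. Dots and lines give the mean and range over 6 libraries with all exons as the length, and open diamonds the mean with the longest coding transcript; the mean of Rgs13 is the highest under both lengths, while with the longest coding transcript its range over libraries overlaps that of Rgs19.

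Of 14 other genes with an RGS name or an RGS-binding product, 5 passed the filter. Rgs12, a large R12 protein with additional domains, had 19.3 CPM per kb, below Rgs19 in all 6 libraries and above Rgs10 in 5 of 6. Rgs9, an R7 protein best known from retina and striatum, had 1.17 CPM per kb. The RGS anchor genes Rgs7bp (0.367) and Rgs9bp (0.251 CPM per kb) and the RZ gene Rgs17 (0.162) were low. The other 9 (Rgs4, Rgs5, Rgs6, Rgs7, Rgs8, Rgs11, Rgs21, Rgs22 and Rgsl1) had at most 9 counts in any library.

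The main comparison asked whether the members differed between rPTH and control. None of the 10 did by the test: edgeR's quasi-likelihood test with Benjamini-Hochberg adjustment over 16696 genes gave adjusted p values from 0.619 (Rgs14) to 0.973 (Rgs16). The share called among all tested genes was 0%, and 1314 genes (7.87%) had an unadjusted p under 0.05, 1.98% higher and 5.89% lower with rPTH, none of them a member. In 2 of the 13 other settings 1 member had an unadjusted p under 0.05 in edgeR: Rgs10 without control 3 (0.0406, adjusted p = 0.468) and Rgs14 with trends of length and GC removed (0.0462, adjusted p = 0.756). DESeq2 also called 0 genes, with 1995 at an unadjusted p under 0.05. Among the members 5 had a log2 fold change (rPTH minus control) above 0 and 5 had one below, with a median of -0.02 against -0.09 over all tested genes, of which 41.5% were above 0. The summed level of the 10 members was 467 ± 16.8 CPM in the control and 458 ± 42.5 CPM in the rPTH libraries (mean ± SD, n = 3 each). For none of the 10 did the groups fail to overlap, against 16.8% of all tested genes.

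**Figure D2:**
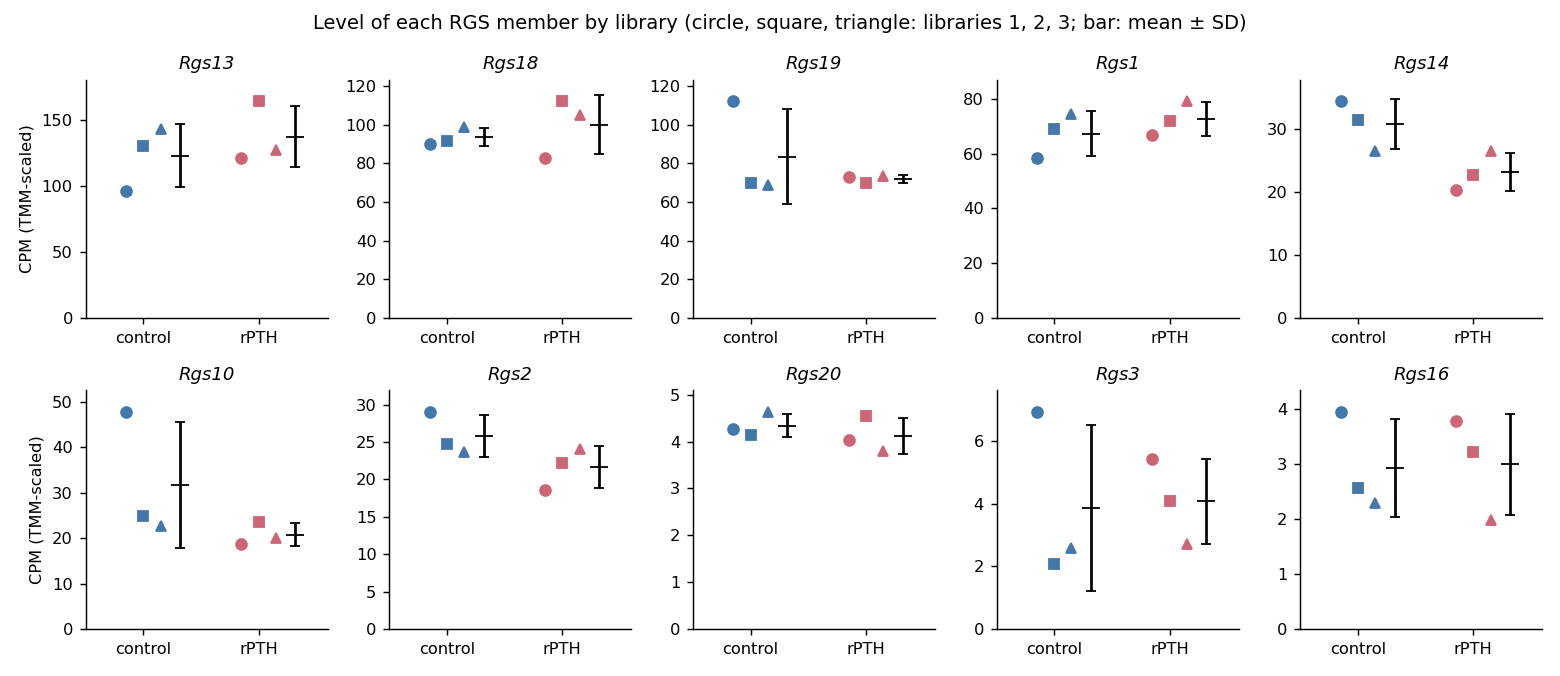
TMM-scaled CPM of each member in the 3 control (blue) and 3 rPTH (red) libraries, with the mean ± SD beside each group. Control and rPTH values overlap in all 10 panels, and control 1 is the highest of the 6 libraries for Rgs2, Rgs3, Rgs10, Rgs14, Rgs16 and Rgs19, though on plain library totals only for Rgs3, Rgs10 and Rgs19. The share of all tested genes that were highest in control 1 was not counted.

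Among the R4 members, Rgs13 had 96.2, 130 and 143 CPM in control 1, 2 and 3 and 121, 164 and 127 CPM in rPTH 1, 2 and 3. Its lowest library was control 1 and its highest rPTH 2, and the log2 fold change was 0.16 ± 0.21 (SE, adjusted p = 0.758). Without control 1 that value was 0.00127. Rgs18 had 90.1, 91.4 and 98.9 CPM in controls and 82.7, 112 and 105 CPM with rPTH. Both the lowest and the highest of its 6 values were rPTH libraries, and the log2 fold change was 0.09 ± 0.17. Rgs1, which dampens chemokine receptor signals in lymphocytes, had 58.5, 68.8 and 74.5 CPM in controls and 66.6, 71.8 and 79.0 CPM with rPTH. The groups interleaved, with a log2 fold change of 0.11 ± 0.16. The 95% intervals of the linear fold ran from 0.787 to 1.59 for Rgs13, from 0.809 to 1.41 for Rgs18 and from 0.827 to 1.4 for Rgs1, so a rise or a drop within these bounds could not be told from no change at this replication.

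Rgs2, the regulator of Gq that parathyroid hormone induces in osteoblasts, had 29.0, 24.7 and 23.7 CPM in controls and 18.6, 22.2 and 24.1 CPM with rPTH. These libraries are of collected mast cells, with rPTH at 24 h only, and do not test that induction in osteoblasts. The lowest library was rPTH 1, which also had the highest stromal marker sum, and 1 rPTH library lay among the controls. The log2 fold change was -0.25 ± 0.18 (adjusted p = 0.633), with a 95% interval of the fold from 0.63 to 1.12. That upper bound holds only for this fit with TMM factors and for the spread between these libraries. On plain library totals control 2 and rPTH 3 were level as the highest, at 25.6 CPM. The log2 fold change in the authors' deposited table was -0.16 ± 0.2 (SE). Rgs3, a regulator of Gi and Gq with many transcript forms, had 6.94, 2.09 and 2.6 CPM in controls and 5.43, 4.09 and 2.72 CPM with rPTH. Control 1 was 2.96 times the mean of the other controls, and the log2 fold change of 0.08 ± 0.51 became 0.78 without control 1 (adjusted p = 0.401, edgeR). Rgs16, an inducible regulator of Gi and Gq, had 3.95, 2.56 and 2.29 CPM in controls and 3.78, 3.22 and 1.99 CPM with rPTH. Its values spread alike in both groups and the log2 fold change was 0.03 ± 0.36. Among the rPTH libraries Rgs3 and Rgs16 were highest in rPTH 1, the library with 6020 CPM of stromal markers and 6950 CPM of mast cell markers (plain CPM); the part of stromal RNA in these values was not tested.

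The R12 members had the lowest fold changes of the 10. Rgs10, the smallest R12 protein, had 47.8, 24.8 and 22.7 CPM in controls and 18.7, 23.6 and 20.1 CPM with rPTH. Control 1 was 2.01 times the mean of the other controls, which overlapped the rPTH range. The log2 fold change was -0.61 ± 0.31 (adjusted p = 0.628), and without control 1 it was -0.20. Rgs14, a scaffold that binds Gi alpha and Ras proteins as well as carrying an RGS domain, had 34.3, 31.4 and 26.4 CPM in controls and 20.3, 22.7 and 26.4 CPM with rPTH. The lowest control and the highest rPTH library were level. Its log2 fold change of -0.41 ± 0.18 had the smallest p of the members (unadjusted p = 0.0596, adjusted p = 0.619), with a fold between 0.561 and 1.01 at the 95% level. Unlike that of Rgs10, it stayed between -0.51 and -0.32 whichever library was left out. Rgs12, of the same subfamily but not a member, had 170, 186 and 171 CPM in controls and 139, 160 and 157 CPM with rPTH. All 3 rPTH libraries of Rgs12 were below the controls, as for 8.46% of all tested genes, but on plain library totals control 1 (138 CPM) was below all 3. Its log2 fold change was -0.21 ± 0.15 (adjusted p = 0.635).

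For the RZ members, Rgs19 had 112, 69.9 and 68.7 CPM in controls and 72.8, 69.8 and 73.6 CPM with rPTH. In all, 5 of the 6 libraries lay within 68.7 to 73.6 CPM and control 1 lay apart from them. The log2 fold change was -0.21 ± 0.22, and 0.05 without control 1. Rgs20, known as a regulator of Gz, had 4.26, 4.14 and 4.63 CPM in controls and 4.03, 4.55 and 3.79 CPM with rPTH, a log2 fold change of -0.07 ± 0.22 from counts that are uncertain for the overlap given above. Their relative Rgs17, not a member, had 1.17, 1.01 and 0.952 CPM in controls and 1.78, 1.8 and 1.35 CPM with rPTH from 22 to 62 counts per library. All its rPTH values were above the controls, as for 8.35% of all tested genes, with a log2 fold change of 0.66 ± 0.30 (adjusted p = 0.619). It stayed between 0.58 and 0.78 whichever library was left out but was 0.16 once trends with gene length and GC had been taken out of every library. The stromal markers had the same order of groups, and their part in the Rgs17 values was not tested.

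**Figure D3:**
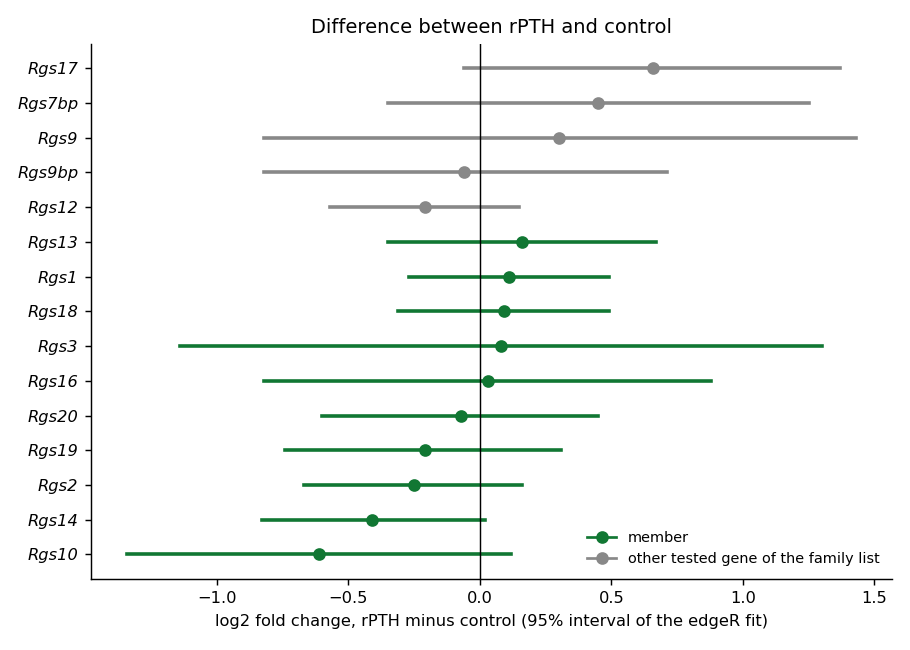
Log2 fold change (rPTH minus control) with its 95% interval from the edgeR fit, for the 10 members (green) and 5 other tested genes (grey). Each of the 15 intervals spans 0; those of Rgs3 and Rgs9 are the widest.

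Control 1 differed from the other controls in several members. In that library Rgs3, Rgs10, Rgs16 and Rgs19 were 2.96, 2.01, 1.63 and 1.62 times the mean of controls 2 and 3, and Rgs13 and Rgs1 were 0.707 and 0.817 times. On plain library totals, a scale added after seeing the data, these ratios were 2.31, 1.57, 1.27 and 1.26 for the first 4 and 0.552 and 0.638 for Rgs13 and Rgs1, and those of Rgs2 and Rgs14 went from 1.2 and 1.19 to 0.934 and 0.927. The first 4 genes have transcripts of 50.7% to 54.3% GC, and Rgs13, Rgs1 and Rgs18 have 34.4%, 35.9% and 33.4%. Rgs14 is as GC-rich as the first 4, at 52.0%, yet its ratio was only 1.19, or 0.927 on plain library totals. Rgs2 has 43.6% GC and Rgs20 47.8%, the latter with a ratio of 0.97. Across the 10 members the correlation of GC with the log2 ratio of control 1 to the other controls was r = 0.82, across the 15 tested genes of the family list r = 0.38, and across 16170 tested genes r = 0.31. Genes are not independent replicates, and these values describe 1 library. Rgs9 (48.2% GC) went the other way, with 2.28 CPM in control 1 and 8.79, 8.95, 7.9, 8.21 and 8.67 CPM in the other libraries, and Rgs12 (54.5% GC) was 0.953 times the others. Over the members GC and the log2 fold change had r = -0.5 (r = -0.23 over 16170 genes). With each library's length and GC trend removed, Rgs1, Rgs3 and Rgs18 had log2 fold changes of -0.31, -0.19 and -0.08 and Rgs19 0.03, all 4 with the opposite sign. The other members kept theirs: Rgs2 (-0.31), Rgs10 (-0.31, from -0.61), Rgs13 (0.03, from 0.16), Rgs14 (-0.35), Rgs16 (0.26, from 0.03) and Rgs20 (-0.1).

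**Figure D4:**
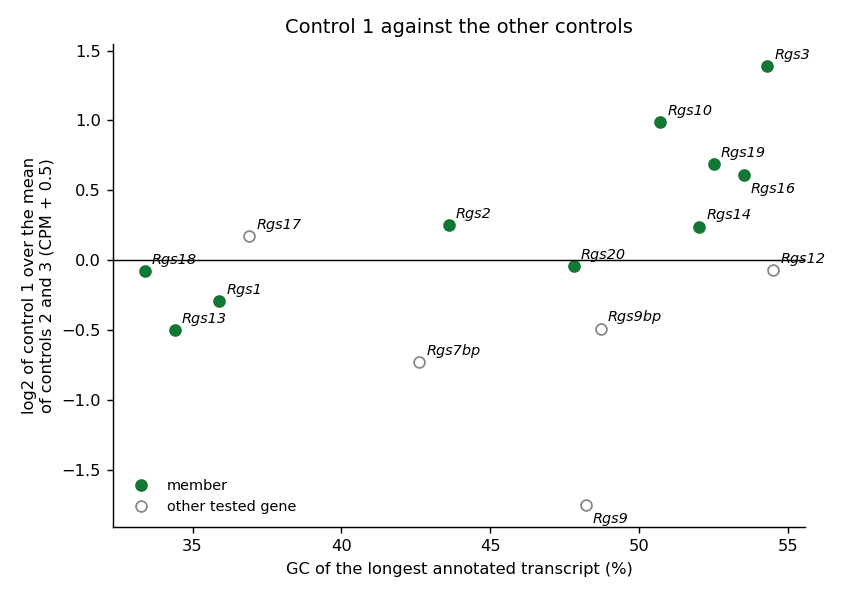
GC content of each gene's longest annotated transcript (x axis, %) against the log2 ratio of control 1 to the mean of controls 2 and 3 (y axis), with filled points for members and open points for 5 other tested genes. The 4 members of highest ratio (Rgs3, Rgs10, Rgs19 and Rgs16) lie at the GC-rich end and Rgs9 lies far below the rest. Rgs14 lies at the GC-rich end too (52.0%), with a log2 ratio of only 0.24.

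Each member's share of the summed CPM of the 10 members was also compared. Rgs12 is outside that sum. By CPM it was above Rgs13, with means of 176 against 123 in controls and 152 against 137 with rPTH. Rgs13 took 26.4 ± 5.7% of the members' summed CPM in controls and 29.9 ± 2.88% with rPTH (SD, n = 3 each), with 19.9% in control 1 and 27.4% to 33.0% elsewhere. The 4 most abundant members by CPM (Rgs1, Rgs13, Rgs18 and Rgs19) together made up 73.9% to 83.9% of that sum in each library. The 4 members of the chromosome 1 cluster summed to 274, 315 and 340 CPM in controls and to 289, 370 and 335 CPM with rPTH. Likeness to the pattern of Rgs13 over the 6 libraries was ranked by Pearson's r of log2(CPM + 1). It was ranked among 8825 tested genes of at least 10 CPM, without symbols of the form Gm plus digits, ending in Rik or holding -ps. The most alike of these were Slc31a1 (r = 0.986), Klhl9 (0.98), Pros1 (0.979), Lhfpl1 (0.976) and Zfp322a (0.971). These values of r are a description over 6 libraries. Each of these 5 genes was lowest in control 1 and highest in rPTH 2, as was Rgs13, which follows from picking them by r.

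The rest of the pathway was read from fixed lists, on the same scale, and no gene of them passed the test. Of the G alpha subunits, the substrates of RGS proteins, 14 of 16 were tested, 6 with a log2 fold change above 0 and 8 below (median -0.12). Gnai2 was the most abundant with 572 ± 100 CPM in the control and 475 ± 30.0 CPM in the rPTH libraries (mean ± SD, n = 3 each, in that order throughout), followed by Gnai3 at 125 ± 19.2 and 149 ± 4.0 CPM. Gnaq, the alpha subunit that Rgs2 acts on, had 14.3 ± 1.86 and 23.7 ± 6.09 CPM, a log2 fold change of 0.73 ± 0.23 (SE) with an unadjusted p of 0.0156 and an adjusted p of 0.619 in edgeR, and Gnal had 1.09 ± 0.22 and 0.651 ± 0.0915 CPM. All rPTH libraries lay above the controls for Gnaq and Gnai3, as for 8.35% of all tested genes, and below for Gnal, as for 8.46%. The beta and gamma subunits had 15 of 17 tested, 5 above 0 and 10 below (median -0.12), with Gnb1 (443 ± 79.2 and 407 ± 18.5 CPM) and Gnb2 (335 ± 148 and 250 ± 8.92 CPM) most abundant. Gng12 had 30.6 ± 2.05 and 47.5 ± 14.4 CPM (unadjusted p = 0.0297, adjusted p = 0.619, edgeR) and Gngt2 98.9 ± 68.4 and 56.8 ± 9.81 CPM. Without control 1 the log2 fold change of Gngt2 went from -0.80 to -0.08 and that of Gnb2 from -0.42 to -0.01.

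Receptor kinases and arrestins, which end signalling at the receptor rather than at the G protein, had 7 of 12 listed symbols (older names included) tested, 1 above 0 and 6 below (median -0.07). Grk2 had 217 ± 31.7 and 183 ± 6.47 CPM and Arrb2 146 ± 44.4 and 106 ± 7.04 CPM. Both had all rPTH libraries below the controls, as for 8.46% of all tested genes, on the TMM scale that raises control 1. Arrb1 had 136 ± 38.8 and 134 ± 7.06 CPM and Sag 1.65 ± 0.648 and 1.06 ± 0.369 CPM. G-protein effectors had 15 of 19 tested, 11 above 0 and 4 below (median 0.2). Arhgef1 was the most abundant with 192 ± 8.85 and 175 ± 10.9 CPM, and the adenylyl cyclase Adcy7 had 171 ± 80.0 and 184 ± 20.9 CPM. Plcb4, a phospholipase C that Gq activates, had 3.27 ± 1.03 and 6.08 ± 1.52 CPM (unadjusted p = 0.0331, adjusted p = 0.619, edgeR) and Adcy4 0.572 ± 0.121 and 0.293 ± 0.0414 CPM from 8 to 18 counts per library. Of 58 G-protein-coupled receptors listed for mast cells 31 were tested, 9 above 0 and 22 below (median -0.12), led by the thrombin receptor F2r (280 ± 39.8 and 293 ± 26.3 CPM) and the prostacyclin receptor Ptgir (107 ± 10.8 and 90.0 ± 11.2 CPM). The sphingosine-1-phosphate receptor S1pr1 had 17.1 ± 1.39 and 26.0 ± 5.82 CPM (unadjusted p = 0.021, adjusted p = 0.619, edgeR) and S1pr4 5.81 ± 1.9 and 3.93 ± 0.523 CPM. Of the genes named from the pathway lists, Gng12, Plcb4 and S1pr1 also had all rPTH libraries above the controls (8.35% of all tested genes). Adcy4 and S1pr4 had all of them below (8.46%). The 33 tested stromal markers had 31 above 0 with a median of 0.56, and their part in the values of Gnaq, Gng12, Plcb4 and S1pr1 was not tested. The 14 tested mast cell markers had 5 above 0 and 9 below, with a median of -0.23 against -0.09 over all tested genes. For 3 of these 14, Gata2 among them, all rPTH libraries were below the controls (8.46% of all tested genes).

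In the authors' deposited table the 10 members had log2 fold changes from -0.44 (Rgs10) to 0.21 (Rgs13) and adjusted p-values from 0.604 to 0.995, none under 0.05, against 11 genes under 0.05 in the whole table. The signs in the authors' deposited table were those given above for 9 of 10 members, the exception being Rgs20 with a value of 0.0 after rounding.

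The sign of the fold change held in all 13 other settings for 4 members, Rgs2, Rgs10, Rgs13 and Rgs14. Rgs2 ran from -0.34 to -0.16 without single libraries and Rgs10 from -0.77 to -0.20. Rgs1, Rgs3, Rgs16, Rgs18, Rgs19 and Rgs20 each took the other sign in at least 1 setting. No member passed in any setting, the smallest adjusted p being 0.401.

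**Figure D5:**
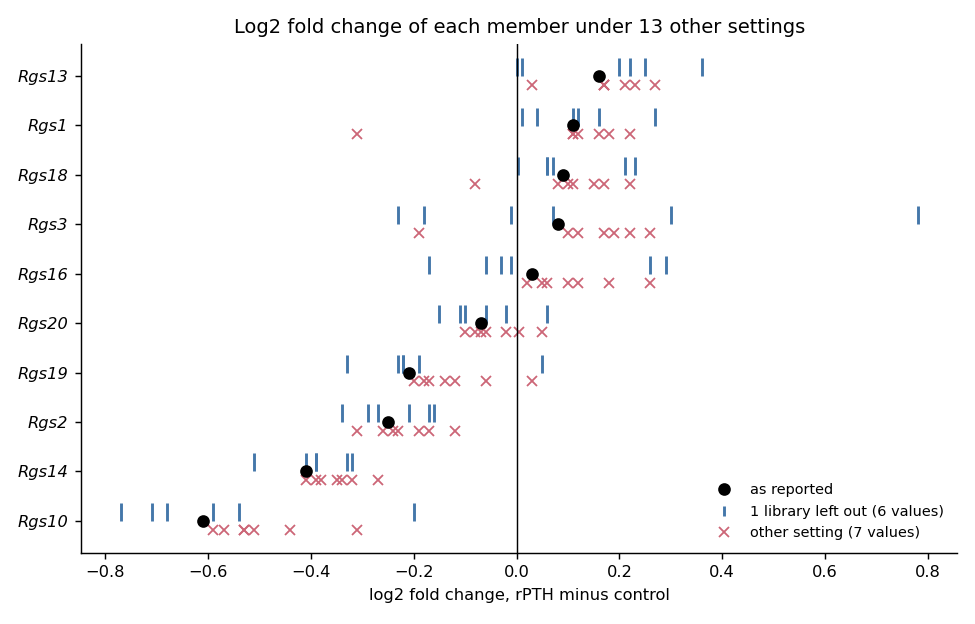
Log2 fold change of each member as reported (black), with 1 library left out (blue bars, 6 values) and under 7 other settings (red crosses). Rgs10, Rgs14 and Rgs2 lie to the left of 0 throughout; Rgs3 has the widest range, from -0.23 to 0.78.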

How the data were processed

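RNA of 3 control and 3 rPTH libraries was sequenced; groups come from the labels' titles. RNA was extracted with Trizol and a TruSeq RNA kit was used for the libraries, per the labels' protocols. The deposited table holds raw counts per gene. The submitters' processing notes name Trimmomatic 0.36, STAR 2.5.2b, Subread 1.5.0p3, featureCounts, DESeq2 1.12.4 and R 3.3.0, with no roles, and both GRCm38.p5 and mm9; no source used here gives the strand setting or annotation. The authors' deposited comparison table holds log2 fold changes with standard errors, p-values with adjusted p-values, a mean signal and a score (the Wald statistic), per the file headers. Normalized and regularised log tables were not used.

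Counts were tested with edgeR 4.0.16 in R 4.3.3 (quasi-likelihood, robust, TMM factors, filterByExpr with a minimum count of 10, adjusted p threshold 0.05), which left 16696 of 49568 genes. The code was tested on simulated data. Standard errors are the fold change divided by the root of F. Symbols matched 1 GENCODE M21 gene for 47206 genes; coordinates are from there. Promoter windows are from RefSeq (GRCm38.p6). Alternatives were DESeq2 1.42.0, RLE factors, 2 other filters, a replicate block, protein-coding genes only, a length and GC correction, and leaving out each library. Named pathway genes are the 2 of highest mean CPM and the 2 of smallest p of each list, and named markers the 3 of highest mean CPM. The members, lists and rules were chosen with earlier results of these data known. No pair of libraries was a duplicate: the chi-square of counts per degree of freedom was 12 to 261.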

Additional observations from a re-analysis of the deposited data

How the results depend on the processing

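In all 13 other settings 0 members and 0 genes overall were called; the number of genes at an unadjusted p under 0.05 was 1314 as reported, 272 to 2165 without single libraries, 525 with the replicate block and 2377 with no filter on low counts. With no filter all genes shifted by a median of 0.13 on the log2 scale. That shift was 0.09 without control 3, 0.08 with DESeq2 and 0.06 with RLE factors, and it lay within -0.05 to 0.05 elsewhere. Fold changes under each setting are to be read against its shift. After removal of the length and GC trend the log2 fold change was -0.31 for Rgs1, -0.19 for Rgs3, -0.08 for Rgs18 and 0.03 for Rgs19. With no filter it was 0.05 for Rgs20, 0.05 for Rgs9bp, 0.02 for Gnb1 and 0.08 for Arrb1. With DESeq2 it was 0.00493 for Rgs20, 0.01 for Rgs9bp and 0.05 for Arrb1, and with RLE factors 0.02 for Arrb1. Without single libraries the log2 fold change ran from -0.23 to 0.78 for Rgs3, -0.17 to 0.29 for Rgs16, -0.33 to 0.05 for Rgs19, -0.15 to 0.06 for Rgs20, -0.11 to 0.61 for Rgs9, -0.25 to 0.26 for Rgs9bp, -0.17 to 0.02 for Gnb1, -0.25 to 0.14 for Arrb1, -0.25 to 0.35 for Adcy7 and -0.05 to 0.17 for F2r; the median of the members ran from -0.17 to 0.01. The cause of these changes of sign was not tested. The deviations of same-numbered libraries from their group means had correlations of -0.131, -0.323 and 0.142. With 3 libraries per group such values cannot decide whether same-numbered samples were handled together. With the replicate block no member was called, and Arrb1 had a log2 fold change of 0.02. The stromal marker difference of 1760 CPM was 1100 to 2140 CPM without single libraries and 1420 CPM with TMM scaling. On plain library totals, an alternative added after seeing the data, 3 members rather than 6 were highest in control 1. The share of all tested genes that were highest there was not counted on either scale. Of the tested genes of the family list, Rgs3, Rgs16, Rgs17, Rgs20, Rgs7bp and Rgs9bp had at most 171 counts in a library.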

Other observations

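Of the genes tied to the R7 subfamily, 4 passed the filter on low counts, and 3 of them (Rgs9, Rgs7bp and Rgs9bp) were lowest in control 1, which was noticed after their values were seen. This was not particular to the R7 genes: Rgs1 and Rgs13 were lowest there too. On plain library totals Rgs12, Rgs17, Rgs18 and Rgs20 were as well. The share of all tested genes that were lowest in control 1 was not counted. R7 proteins such as Rgs9 are known to work as complexes with the beta subunit Gnb5 and a membrane anchor. Rgs9 had 2.28 CPM in control 1 and 7.9 to 8.95 CPM in the other 5 libraries. Rgs7bp, which encodes an anchor, had 1.37 CPM in control 1 and 2.56 to 3.59 CPM elsewhere, and the anchor gene Rgs9bp had 1.22 CPM and 1.51 to 2.21 CPM. The fourth, Gnb5, was not lowest there, with 2.58 CPM in control 1, 1.86 and 2.16 CPM in the other controls and 2.33 to 3.02 CPM with rPTH. The R7 genes Rgs6, Rgs7 and Rgs11 had at most 9 counts in a library and are not compared. The adenylyl cyclase Adcy7 was also low in control 1, at 78.6 CPM against 167 to 221 CPM in the other 5 libraries. Without control 1 the log2 fold change of Rgs9 was -0.11 and that of Adcy7 was -0.25.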
